A study of Mus musculus with 10 samples.

Results

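The liver response to an ethanol gavage that was of similar size at 5 g/kg and at 7 g/kg is described here. The members were all tested genes whose estimated change differed by under 0.3 log2 between the doses, and 23856 of 26124 tested genes (91.3%) met this rule, 13516 of them with a gene symbol. The other 2268 genes differed by 0.3 log2 or more between the doses. Most members did not change at either dose, so the description turns on those whose mean change over both doses passed the test below.

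Ethanol is oxidised in hepatocytes by alcohol dehydrogenases and by the P450 enzyme CYP2E1 to acetaldehyde, which aldehyde dehydrogenases turn into acetate. The dehydrogenases of both steps pass electrons to NAD, which the liver also needs for fatty acid oxidation, and a binge is known for fat deposition and for injury signals. Misfolded protein in the endoplasmic reticulum (ER) calls up chaperone genes through ATF6, XBP1 and ATF4. The liver also runs a daily clock, in which the proteins CLOCK and BMAL1 drive the PER, CRY and REV-ERB genes that hold them back and output genes such as Dbp.

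The animals were male C57BL/6N mice with no genetic change named in the labels, and no age. The control group received by gavage maltose at the calories of 5 g/kg ethanol (3 arrays), and the other groups received 5 g/kg ethanol (4 arrays) or 7 g/kg ethanol (3 arrays). The control thus matches the calories of the lower dose only, and no group received neither maltose nor ethanol, so a difference between ethanol and maltose cannot be assigned to either. How long after gavage the liver was taken is not in the labels, and they number the replicates without saying that each was a separate mouse, so each p-value reflects variation among these samples, which may be technical. Total RNA of fresh liver, labelled with Cy5, was hybridised on each array against a commercial mixed mouse RNA labelled with Cy3. All values below are log2 ratios of liver over this reference, and probes of different genes are not compared in level.

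Arrays had median Cy5 intensities from 121 to 219 against local backgrounds from 21 to 24, and the scanner marked 67.3% to 86.2% of their spots as well above background. No spot was saturated. The number of arrays limits the precision: the median standard error (SE) was 0.108 log2 for the mean change over both doses and 0.12 for the difference between the doses. The arrays lay on 4 slides. Slide 3 held a control and a 5 g/kg array, slides 2 and 4 held a control and an array of each dose, and slide 1 held ethanol arrays only, so 5 differences between ethanol and control could be taken within a slide.

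The question was which genes ethanol changed whatever the dose. In 1 limma fit of 3 group means, the mean of both ethanol groups was compared with the maltose group, and a gene was called where its p, adjusted by Benjamini-Hochberg across the whole table, was under 0.05. Of all genes, 8.46% were called (2209), with 4.48% higher (1171) and 3.97% lower (1038) after ethanol. Among the members 1406 were called, 735 higher and 671 lower, which is 5.89% of the members and 63.6% of all calls. With the log ratios centred on their median in place of the loess curve, 826 members were called higher and 332 lower, and among all calls 69.7% in place of 53% were higher. That centring moved the median change of all genes from 0.008 to 0.04 log2. "Rose" and "fell" are used below only of called genes.

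The changes of similar size were mostly small. Their median size was 0.477 log2 (1.39-fold), against 0.717 among the 803 called genes whose doses differed by more. Of 300 called genes that changed at least 2-fold, 62 (20.7%) were members, 46 higher and 16 lower, while 1344 of 1909 calls under 2-fold (70.4%) were. A fixed limit on a difference admits small changes more readily. Of the 803 called genes outside the limit, 728 lay farther from maltose at 7 g/kg and 75 farther at 5 g/kg. The members leaned the same way, with 1000 of 1406 farther from maltose at 7 g/kg.

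An estimated difference under 0.3 does not show that the doses acted alike. The 95% interval of the difference lay wholly within 0.5 log2 of 0 for 1137 of the 1406 genes and wholly within 0.3 for 251. Tested alone against maltose, 5 g/kg gave 991 calls in the same fit (3.79% of all genes) and 7 g/kg gave 2354 (9.01%). Of the 1406 genes, 631 were also called at 5 g/kg and 1120 at 7 g/kg, 518 at both and 173 at neither. Both comparisons share the 3 maltose arrays. In 1214 of the 1406 genes (86.3%) all 7 ethanol arrays lay on 1 side of all 3 control arrays, which held for 10.4% of all tested genes. The same arrays made the calls, so nothing is read from this share. Groups without overlap were also part of the rule that chose the 12 highest and 12 lowest genes named below.

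**Figure D1:**
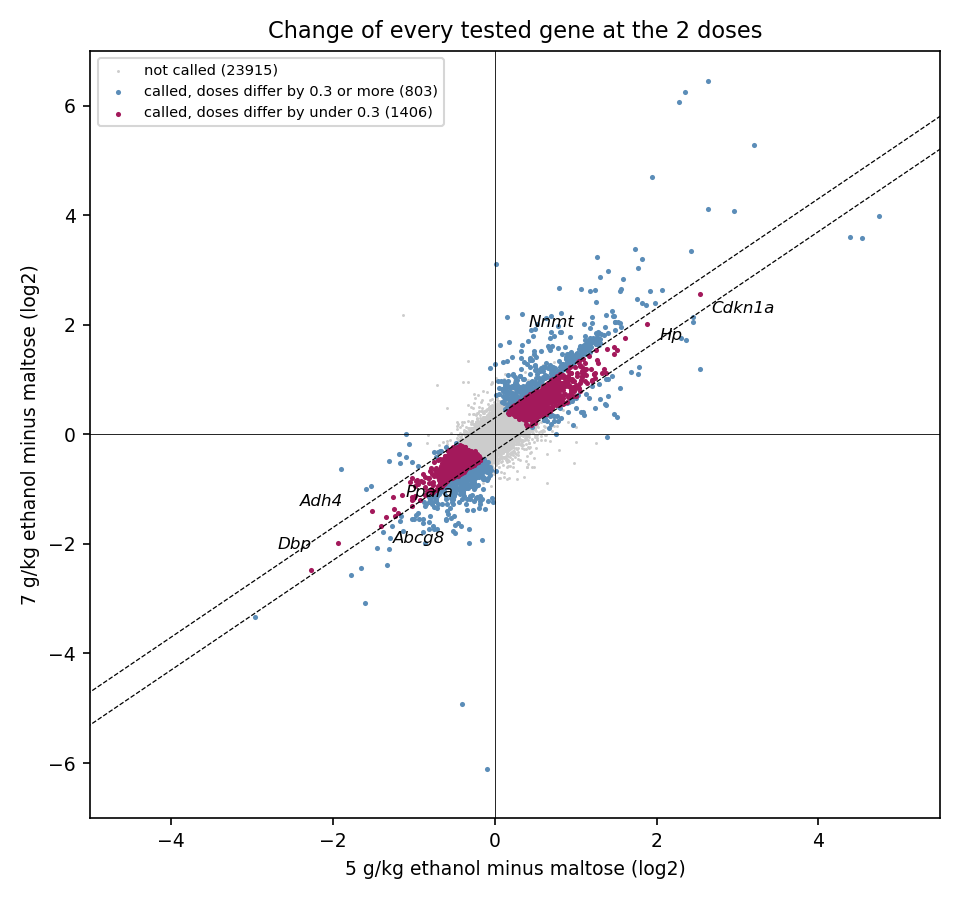
Change of each tested gene at 5 g/kg (x axis) and at 7 g/kg (y axis) against maltose, in log2, with dashed lines at a difference of 0.3 between the doses. The 1406 called genes inside the lines crowd near the centre, and Cdkn1a and Dbp stand near the ends.

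Cdkn1a, which encodes the cell cycle inhibitor p21, rose the most among these genes, 5.84-fold (log2 2.55, SE 0.13, limma adjusted p = 8.8e-08). Its control arrays lay at −2.60, −2.07 and −2.50 and its ethanol arrays at 0.26, 0.11, −0.06 and 0.25 at 5 g/kg, with the 7 g/kg arrays at 0.18, 0.39 and −0.06. The ethanol arrays of both doses shared 1 narrow range more than 2 log2 units above every control. The change was 2.53 at 5 g/kg and 2.56 at 7 g/kg, and the 95% interval of the difference ran from −0.28 to 0.34. Within slides the change was 2.18 to 2.86, and with slide as a block it was 2.53.

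Nnmt, which methylates nicotinamide with S-adenosylmethionine as the donor, rose 3.22-fold (log2 1.69, SE 0.18, limma adjusted p = 5.18e-05). Controls lay at −0.90, −1.80 and −1.26 and ethanol arrays at 0.48, 0.27, 0.48 and −0.05 at 5 g/kg, with the 7 g/kg arrays at 0.12, 0.63 and 0.59. All ethanol arrays were above all controls, and the controls spread more widely than either dose. Hp, which encodes the haemoglobin-binding acute phase protein haptoglobin, rose 3.87-fold (log2 1.95, SE 0.21, limma adjusted p = 5.98e-05), with controls at 0.02, −0.90 and −0.53, 5 g/kg arrays at 1.38, 1.17, 2.01 and 1.08, and 7 g/kg arrays at 1.37, 1.42 and 1.87. From the Cy5 channel alone its change was 0.35 (adjusted p = 0.261), so the call for Hp rests on the ratio to the reference. Cd14, the co-receptor for bacterial lipopolysaccharide, rose 2.77-fold (log2 1.47, SE 0.19), and its estimates at the doses were 1.47 and 1.47. Its arrays at 7 g/kg spread from −0.27 to 0.75 and its controls from −1.52 to −0.83, so the agreement of the means is closer than that of the arrays.

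The other farthest rises were in genes of varied function. Cyp2c29, a drug-metabolising P450 gene, rose by 1.53 (n = 2 controls). Its family is near-identical in sequence, so the probe may read relatives as well. Vmp1, which acts in autophagosome formation at the ER, rose by 1.29, and H3f3b, a gene for histone H3.3, by 1.30. Shld2, which encodes a subunit of the shieldin complex of DNA break repair, rose by 1.27 with control arrays at −1.14, −0.75 and −0.95 and every ethanol array between 0.14 and 0.50. Dusp4, a MAP kinase phosphatase gene, rose by 1.23, Dop1b by 1.22 (0.47 by another probe, adjusted p = 0.0609), the copine gene Cpne9 by 1.47 (n = 2 at each dose) and the RNA-binding protein gene Csdc2 by 1.40 (SE 0.26). The 5 g/kg arrays of Csdc2 ran from −0.57 to 0.91.

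**Figure D2:**
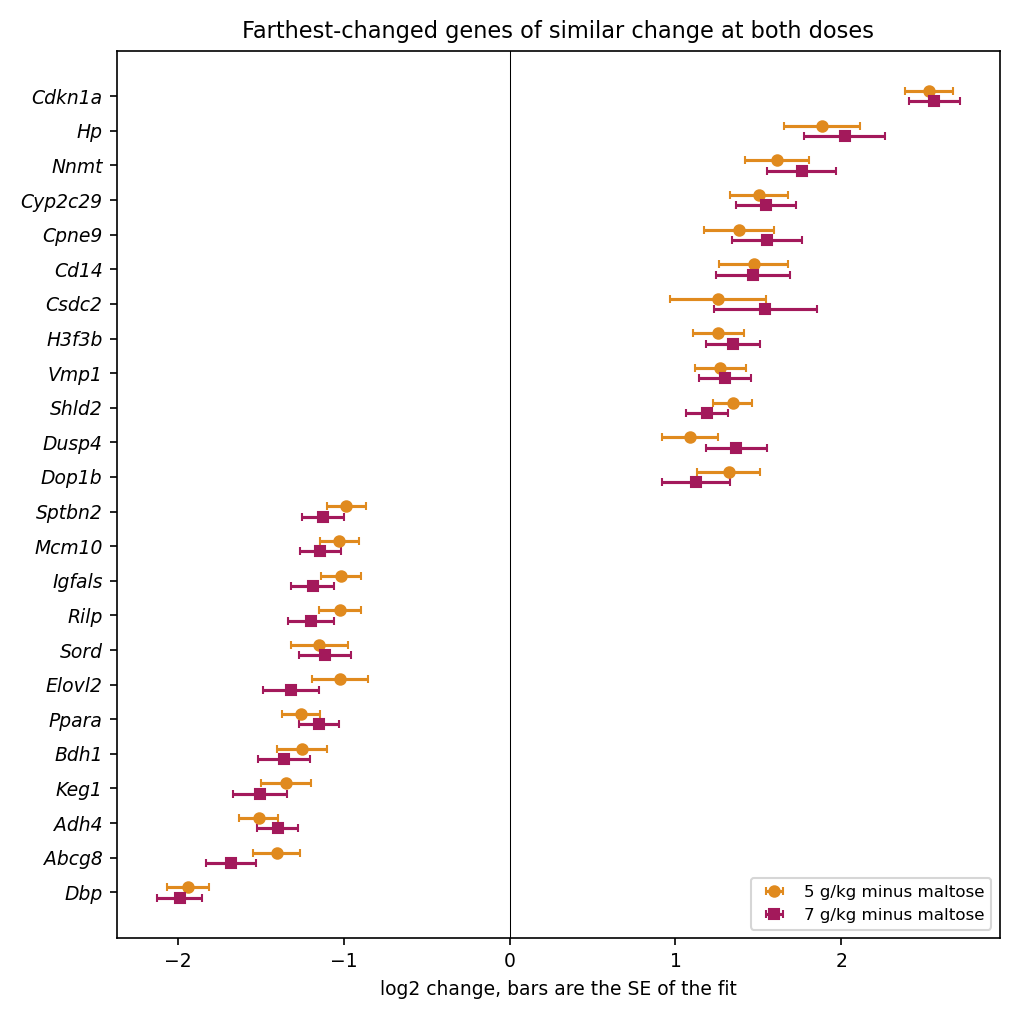
Log2 change at 5 g/kg (circles) and at 7 g/kg (squares) against maltose for the 12 highest and 12 lowest called members that have a symbol and groups that do not overlap, with the SE of the fit as bars. Cdkn1a lies farthest to the right and Dbp farthest to the left, and the markers of each gene lie within 0.3 by the rule that chose them.

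Dbp, which encodes a transcription factor that carries the clock's rhythm to metabolic genes, fell the most of the members with a symbol, 3.91-fold (log2 −1.97, SE 0.11, limma adjusted p = 1.79e-07). Its control arrays were at 1.15, 1.24 and 1.27. The 5 g/kg arrays were at −1.01, −0.47, −0.58 and −0.83 and the 7 g/kg arrays at −0.83, −0.85 and −0.64. The groups were far apart, and the change was −1.94 at 5 g/kg and −1.99 at 7 g/kg. Within slides it was −2.16 to −1.71.

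Dbp's relative Tef fell by 0.90 (SE 0.11, limma adjusted p = 0.000174), from 0.84, 0.83 and 0.82 in controls to −0.01 to 0.16 at 5 g/kg and to 0.02, −0.55 and −0.11 at 7 g/kg. Its estimates were −0.76 at 5 g/kg and −1.05 at 7 g/kg, close under the limit. Its 2 other probes gave −0.73, with a dose difference of −0.38 that is outside the limit, and −0.53. Per3, of the clock's repressor family, fell 1.95-fold, from 0.69, 0.54 and 0.66 in controls to −0.20, −0.07, −0.59 and −0.57 at 5 g/kg, with the 7 g/kg arrays at −0.24, −0.28 and −0.41, with no overlap. Nr1d1, which encodes REV-ERB alpha, fell 1.47-fold (adjusted p = 0.0208). Its controls were 0.70, 0.06 and 0.05, without maltose replicate 1 it fell only by 0.34 and was not called, and of 2 other Nr1d1 probes 1 gave −0.63 and the other −0.08. Clock itself rose 1.49-fold (log2 0.58), and its 2 other probes gave 0.51 and 0.64.

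Most of the core clock did not pass. Of 15 tested core clock genes 2 rose and 2 fell. Among the 14 members Clock rose and Per3 and Nr1d1 fell, and the other rise was outside the limit. The median change of the 15 was −0.01 against 0.008 for all genes. Per1 was at −0.03, Per2 at 0.06, Cry1 at −0.01, Arntl (BMAL1) at 0.15 and Nr1d2 at −0.13, none of them called. Of 8 tested clock output factors, 4 fell (Dbp, Tef and Usp2 among the members, and Hlf outside the limit) and Nfil3 rose outside the limit. Usp2, a clock-driven deubiquitinase gene, fell by 0.38 with adjusted p = 0.0473 and had 2 control values, and with slide as a block it was not called (adjusted p = 0.0826). Its size and its place among the members depend on the probe: another Usp2 probe gave −1.36 (adjusted p = 7.88e-05) with a dose difference of −0.48, outside the limit, and over the left-out arrays Usp2 ran from −1.47 (without maltose replicate 1; −1.29 without maltose replicate 2) to −0.36. The list's median was −0.31, and it was −0.42 to −0.05 within slides. Without maltose replicate 3, 7 g/kg replicate 2 or 7 g/kg replicate 3, 2 output factors in place of 4 fell.

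The D-box is the site that DBP and TEF bind, and the E-box CACGTG is the site of CLOCK and BMAL1. They are shown for Per3 and Tef because those promoters hold them, in the RefSeq windows of GRCm38.p6 that run from 250 bases before to 50 bases after each start. Per3 (chr4:151044791-151044895, minus strand) has 2 copies of the D-box TTATGTAA, in capitals, upstream of its start.
Per3: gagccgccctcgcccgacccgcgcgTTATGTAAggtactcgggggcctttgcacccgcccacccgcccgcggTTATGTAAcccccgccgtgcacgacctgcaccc
Tef has 2 annotated starts, and upstream of each is an E-box, in capitals (chr15:81802521-81802576 and chr15:81811251-81811306, plus strand).
Tef, upstream start: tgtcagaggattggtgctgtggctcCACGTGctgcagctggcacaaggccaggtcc
Tef, downstream start: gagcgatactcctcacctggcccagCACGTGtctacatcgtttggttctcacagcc
On either strand, the D-box was found in 299 of 27025 genes of the table (1.11%) and in 0.683% of the 439 fallen members with a window. The E-box was found in 8.09% of all genes, in 10.4% of the risen and in 10.9% of the fallen members, beside 10.3% of the tested genes. These matches are letters in a window and were not tested for binding.

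**Figure D3:**
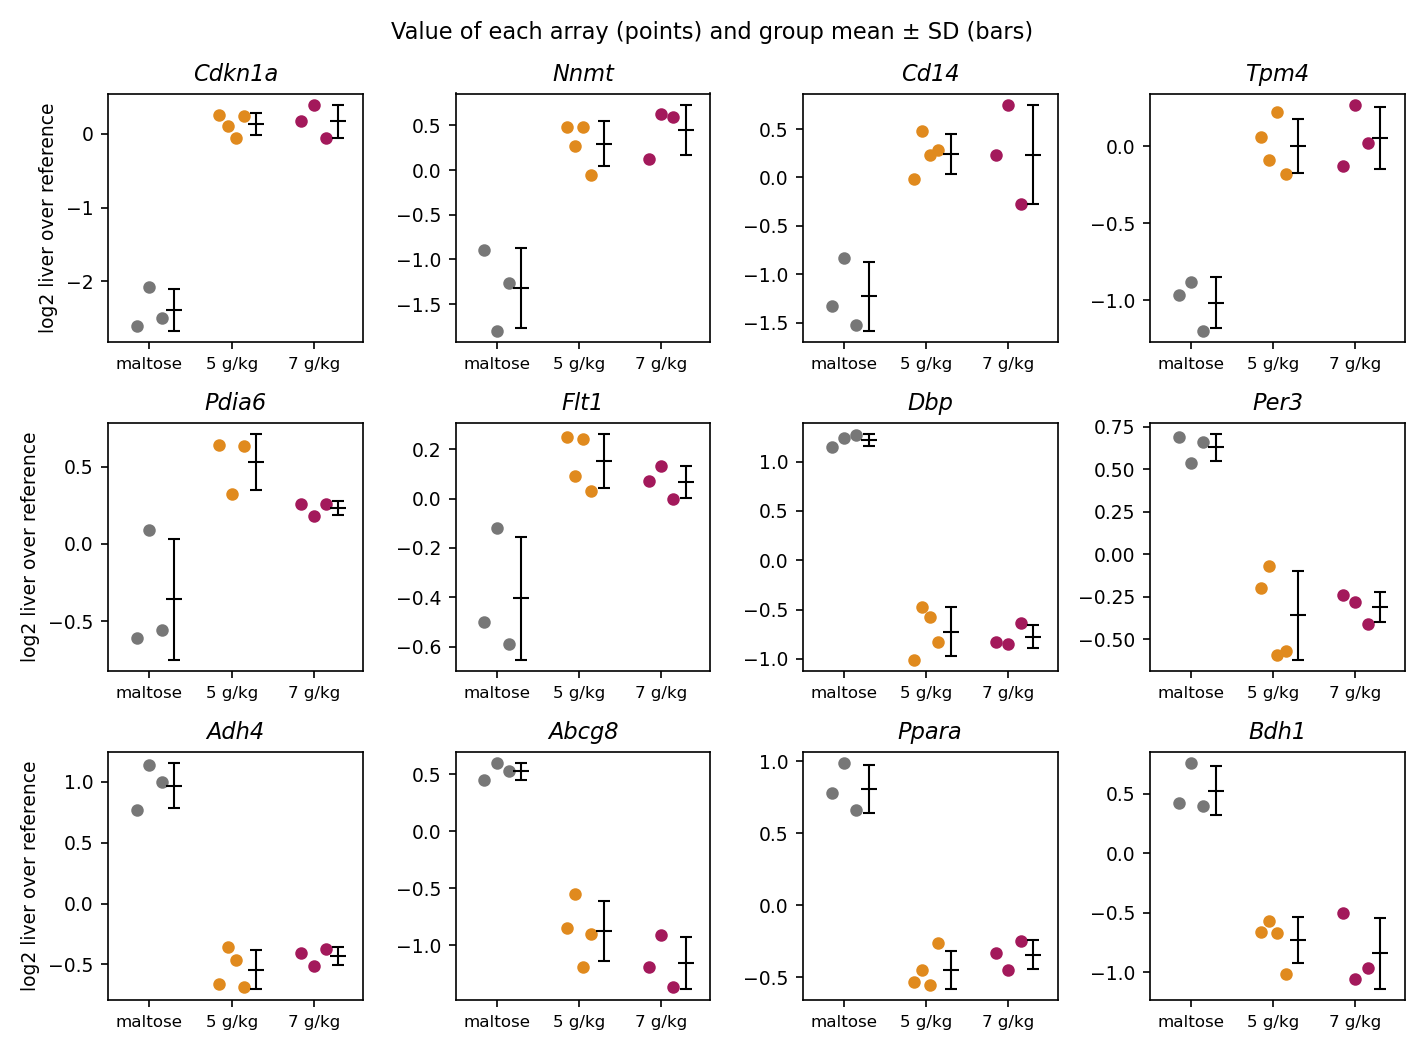
Log2 liver over reference of each array (points, 3 maltose, 4 at 5 g/kg and 3 at 7 g/kg) with the group mean and SD beside them for 12 members. In Cdkn1a, Tpm4, Dbp, Per3, Adh4, Abcg8, Ppara and the other panels every ethanol array lies on 1 side of the controls, and Pdia6 has 3 values at 5 g/kg.

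Alcohol dehydrogenase genes fell, and Adh4 did so under each of the 26 settings tried. Adh4 fell 2.75-fold (log2 −1.46, SE 0.11, limma adjusted p = 1.94e-06), with controls at 0.77, 1.14 and 1.00, 5 g/kg arrays at −0.66, −0.36, −0.46 and −0.69, and 7 g/kg arrays at −0.41, −0.51 and −0.37. No ethanol array came within 1 log2 unit of a control. Adh1, the gene of the main class of the enzyme in mouse liver, fell 1.42-fold, from 0.14, 0.33 and 0.50 to −0.26, −0.25, −0.27 and −0.39 at 5 g/kg, with the 7 g/kg arrays at −0.12, −0.11 and 0.02, without overlap, and its fall was the larger at 5 g/kg (−0.61 against −0.39). Another Adh1 probe gave −0.42 and was not called (adjusted p = 0.129). Adh5, the formaldehyde-oxidising member, fell by 0.32 (adjusted p = 0.048) and was not called with slide as a block (0.0704) nor without any 1 of the maltose arrays. It was called in 9 of 26 settings. Of 8 tested ethanol-oxidising genes 5 fell and 0 rose, and the other fallen ones, Cyp2e1 (−0.34 at 5 g/kg, −0.77 at 7 g/kg) and Dhrs4, were outside the limit. The list's median was −0.41 and −0.41 to −0.17 within slides, and 3 fell without maltose replicate 3. Of 11 aldehyde dehydrogenase and acetate genes 1 rose and 4 fell, and 2 fell without maltose replicate 1 or 2. The 2 called members changed in opposite directions, with Aldh1l1, of folate metabolism, at 0.52 and Aldh4a1, of proline catabolism, at −0.34. Aldh4a1 was not called with slide as a block (adjusted p = 0.0806) nor without any 1 of the maltose arrays. The other falls were outside the limit. Aldh2, the mitochondrial enzyme that clears acetaldehyde, was at −0.09 and not called.

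Ppara, which encodes the nuclear receptor that drives fatty acid oxidation in fasting, fell 2.31-fold (log2 −1.21, SE 0.10, limma adjusted p = 7.81e-06). Its controls were at 0.78, 0.99 and 0.66, its 5 g/kg arrays at −0.53, −0.45, −0.55 and −0.26, and its 7 g/kg arrays at −0.33, −0.45 and −0.25. The groups did not overlap, and the fall was 1.26 and 1.15 log2 at the doses, in size. Rxra, the partner of its protein, fell by 0.44 (adjusted p = 0.026, and 0.0786 with slide as a block). Rxra was not called without maltose replicate 1 or 3, and was at −0.17 without the latter, and another probe gave −0.20 (adjusted p = 0.286). Bdh1, the last enzyme of ketone body synthesis, fell 2.48-fold, from 0.42, 0.76 and 0.40 in controls to between −1.06 and −0.50 in all ethanol arrays. In contrast Pdk4, a fasting gene that PPAR alpha is known to drive, rose by 0.57, and it was not called without maltose replicate 2 or 3.

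Most of the genes downstream did not share this dose pattern. Of 24 tested beta-oxidation genes 21 fell, but only 3 of those were members: Acad10 (−0.57), Echs1 (−0.44) and Acads (−0.41), and without maltose replicate 2 only 1 member did. The median of the 24 was −0.32 at 5 g/kg and −0.86 at 7 g/kg. Of 14 genes of PPAR alpha, the carnitine shuttle and ketogenesis 8 fell, of which Ppara and Bdh1 were members, with medians of −0.11 and −1.05. Cpt1a, the gate of mitochondrial fatty acid entry, was at −1.17 and −1.58. Of 16 lipogenesis genes 9 rose (5 without maltose replicate 1), none of them a member, and Fads2, a desaturase gene, fell by 0.93 (2 values per group, adjusted p = 0.115 with slide as a block). Elovl2, which elongates polyunsaturated fatty acids, fell by 1.17, from 0.97, 0.43 and 0.21 in controls to −0.92 to −0.34 after ethanol.

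Both genes of the biliary sterol transporter fell. Abcg8 and Abcg5 encode the partners that together form the transporter that sends cholesterol into bile. Abcg8 fell 2.91-fold (log2 −1.54, SE 0.13, limma adjusted p = 7.6e-06), from 0.45, 0.60 and 0.53 in controls to −0.85, −0.55, −1.19 and −0.90 at 5 g/kg, with the 7 g/kg arrays at −1.19, −0.91 and −1.36. Another Abcg8 probe gave −0.71 (adjusted p = 0.0042), so the direction was shared and the size was not. Abcg5 fell by 0.56 at each dose, from 0.41 and 0.25 in 2 controls to between −0.33 and −0.11, also without overlap. Npc1, which moves cholesterol out of lysosomes, fell by 0.50. Of 18 tested genes of sterol sensing, uptake and efflux 6 fell and 1 rose, and Insig2, which rose by 2.45 and 2.14, lay just over the limit with a difference of −0.31 (7 g/kg minus 5 g/kg). Without maltose replicate 2 or 3, 3 in place of 6 fell. Of 18 cholesterol synthesis genes 6 were called and none was a member, and 0 members reached an unadjusted p under 0.05 in limma.

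Abcg5 and Abcg8 are read from opposite strands, and the 109 bases between their starts lie upstream of both, which is why they are shown (chr17:84683012-84683120, plus strand, RefSeq, GRCm38.p6).
Abcg5 and Abcg8: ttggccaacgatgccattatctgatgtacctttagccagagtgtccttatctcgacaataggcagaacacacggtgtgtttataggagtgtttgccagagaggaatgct
Of 10 motifs searched on both strands, 1 was found here, the glucocorticoid element letters TGTTCT, which 21.3% of all genes of the table hold.

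Some genes of the lipid droplet coat rose. Plin3 rose by 0.70 (SE 0.10, limma adjusted p = 0.000752), from −0.43, −0.53 and −0.42 in controls to 0.07 to 0.29 at 5 g/kg and 0.13 to 0.55 at 7 g/kg. Plin4 rose by 0.65 with 1 ethanol array at −0.72 inside the control range, and Plin5 by 0.47. Cideb, which acts in droplet fusion and lipoprotein loading, fell by 0.47. Plin2 was at 0.19 and Pnpla2, the main triglyceride lipase gene of fat cells, at 0.14, and neither was called. Of 17 tested genes of this list 4 rose and 1 fell (median 0.14), and 1 rose without maltose replicate 3, when Plin2 was at −0.16.

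Many tested ER chaperone genes rose, only in part to a similar degree at the doses, and fewer genes of protein export did. Of 14 tested ER chaperone genes 9 rose and 0 fell, with a median change of 0.63 beside 0.008 for all genes, and 3 of the 9 were members. Dnajc3, a co-chaperone that also restrains the kinase PERK, rose 1.63-fold (log2 0.71, SE 0.11, limma adjusted p = 0.00152), from −0.64, −0.67 and −0.80 in controls to 0.35, 0.11 and −0.04 at 5 g/kg (n = 3), with the 7 g/kg arrays at −0.35, 0.02 and −0.08. Pdia6, a protein disulphide isomerase gene, rose 1.67-fold, from −0.61, 0.09 and −0.56 to 0.64, 0.32 and 0.63 at 5 g/kg (n = 3), with the 7 g/kg arrays at 0.26, 0.18 and 0.26. Maltose replicate 2 lay above the other controls of Pdia6 and below every ethanol array. Ppib, a prolyl isomerase gene, rose by 0.42 (adjusted p = 0.0608 with slide as a block). Dnajc3 (0.84 and 0.57) and Pdia6 (0.89 and 0.59) lay close under the limit with the larger change at 5 g/kg, as did Hsp90b1 (1.38 and 0.53), Sdf2l1 (1.55 and 0.85) and Creld2 (2.53 and 1.19) outside it. Another Dnajc3 probe gave 0.50 with a dose difference of −0.53, outside the limit. The list's median was 0.83 at 5 g/kg and 0.55 at 7 g/kg, and 0.34 to 1.15 within slides. Dnajc3, Pdia6 and Ppib stayed called without 7 g/kg replicate 3 and without 5 g/kg replicate 4. In those fits 1 and 5 of the risen genes, in this order, met the dose limit. The count of 9 was 6 without maltose replicate 1 and 6 with the scanner's processed signals. It was 5 with the deposited series table and 3 from Cy5 alone. Ppib was not called without maltose replicate 1, and Pdia6 was not called with the processed signals. Neither Pdia6 nor Dnajc3 was called with the deposited series table. Hspa5 and Atf4 are on the array and did not pass the filters on signal and missing values, so they are not given.

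The ER stress element (CCAAT, any 9 bases, CCACG) is the site through which ATF6 is known to act. Dnajc3 (chr14:118937802-118937870, plus strand) and Pdia6 (chr12:17266466-17266534, plus strand) each hold it upstream of the start, shown with its fixed letters in capitals from the RefSeq windows of GRCm38.p6.
Dnajc3: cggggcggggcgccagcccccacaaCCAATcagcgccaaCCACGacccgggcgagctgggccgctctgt
Pdia6: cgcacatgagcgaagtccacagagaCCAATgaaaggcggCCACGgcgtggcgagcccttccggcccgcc
On either strand these letters were found in 37 of 27025 genes of the table (0.137%), in 2 of 414 risen members with a window (Dnajc3 and Pdia6) and in 0 of 439 fallen members. The 27025 genes include ones that were not tested, and nothing is read from a count of 2. Hsp90b1 and Creld2, which are not members, hold the element as well. The other searched elements were about as frequent in the members as in all tested genes: TGACGTG was in 2.9% of the risen members beside 2.86%, TGACGTCA in 2.9% beside 2.84%, TGAGTCA in 5.8% beside 5.11%, and GAANNTTC in 7.25% beside 7.61%. TGATGNAA was in 1.93% beside 3.28%, TGTTCT in 15.7% beside 16.8%, and TGCGCNC in 28.3% beside 25.8%.

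Around the chaperones, Atf6 itself rose by 0.54 (SE 0.09, limma adjusted p = 0.00223), from −0.59, −0.35 and −0.54 to between −0.04 and 0.10 in all 6 measured ethanol arrays. With it rose Edem1 (0.60) and Derl2 (0.59) of ER-associated degradation and Selenok (0.56), a selenoprotein of the ER membrane. These were 4 of the 6 genes that rose among 17 tested (median 0.29, within slides −0.01 to 0.46). Of 36 genes of translocation, N-glycosylation and vesicle coats 7 rose, and 4 were members: the signal peptidase subunits Spcs2 (0.65) and Sec11c (0.43) and the translocon-associated Ssr3 (0.57) and Ssr1 (0.46). Sec11c and Ssr1 overlapped between groups. With slide as a block 4 of the 36 rose, 1 of them with a dose difference under 0.3 log2 in that fit. The risen count was 2 without maltose replicate 3 and 4 without maltose replicate 1, 7 g/kg replicate 1 or 7 g/kg replicate 3. Without 7 g/kg replicate 2 it was 6, and 0 of those had a dose difference under 0.3 log2 in that fit. The lowest ethanol array was 5 g/kg replicate 4 for Edem1 (−0.52), Spcs2 (−0.44) and Ssr1 (−0.38). Ero1a, the oxidase of disulphide formation, and Phgdh, of serine synthesis, rose by 0.47 and 0.34 among 17 targets of ATF4 and CHOP, of which 4 rose and 2 without maltose replicate 3, while Ddit3 (CHOP) was at 0.44 and 0.06 and not called. Phgdh was not called with slide as a block (adjusted p = 0.0542) nor without any 1 of the maltose arrays.

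The acute phase rose nearly as a whole, with few members of the dose-similar kind. Of 22 tested acute phase genes 20 rose and 0 fell, with a median of 1.28 at 5 g/kg and 2.14 at 7 g/kg, and the 5 members were Hp, Cd14, Serpina3m, Lbp and Itih3. Serpina3m, a protease inhibitor gene with near-identical relatives, rose 2.04-fold, from −0.41, −0.39 and −0.38 to 0.41 to 0.66 at 5 g/kg and 0.51 to 1.07 at 7 g/kg. Lbp, whose protein hands lipopolysaccharide to CD14, rose 1.88-fold (log2 0.91, SE 0.12, limma adjusted p = 0.000318), from −0.75, −0.86 and −0.97 to 0.01 to 0.28 at 5 g/kg and −0.38 to 0.20 at 7 g/kg. Itih3 rose by 0.74 with overlap. By comparison Saa1 rose by 2.35 and 6.24 and Lcn2 by 3.21 and 5.27 at the doses. Sele, an endothelial adhesion gene that inflammation induces, rose by 0.97 and Ccl2 by 0.32 (adjusted p = 0.123 with slide as a block).

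Some immediate early and glucocorticoid-responsive genes rose. Of 20 tested immediate early genes 9 rose and 0 fell, 5 of them members (median of the 20 genes 0.36, within slides 0.21 to 0.62). Without 5 g/kg replicate 1 or 3, 9 still rose, and 3 of those had a dose difference under 0.3 log2 in that fit. Jund rose by 0.89 at each dose, from −0.38, −0.56 and −0.52 to 0.20 to 0.82 at 5 g/kg and 0.29 to 0.53 at 7 g/kg, without overlap. Ier5 (0.92), Klf6 (0.86), Klf4 (0.82) and Jun (0.70) rose as well, with no overlap in any of the 4. Jun was not well above background on any control array. Its mean Cy5 signal rose at least 1.61-fold, a figure of 1 channel without an error. For this the control level was taken as the higher of the lowest detected signal and its own. Fos was at 0.37 and not called. Of 11 MAP kinase phosphatase and feedback genes 5 rose, and the members were Dusp4, Map3k6 (0.61) and Dusp8. By the same Cy5 figure Dusp8 rose at least 1.25-fold. Dusp8 was not called from Cy5 alone or without maltose replicate 1 or 3. Another Map3k6 probe gave 0.94 with a dose difference of 0.53, outside the limit, and Map3k6 was at 0.94 without 7 g/kg replicate 1. Without maltose replicate 1 only 1 of the 11 rose, and 2 without maltose replicate 3 and 3 with slide as a block or without 5 g/kg replicate 3.

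Of 16 tested targets of the glucocorticoid receptor 9 rose and 1 fell (median 0.62, within slides 0.37 to 0.86). The 5 members were Cdkn1a, Sult1e1, Sgk1, Tat and Fkbp5. Sgk1, a hormone-induced kinase gene, rose 1.78-fold (log2 0.83, SE 0.11, limma adjusted p = 0.000318), from −0.83, −0.50 and −0.83 to 0.06 to 0.40 at 5 g/kg and −0.18 to 0.16 at 7 g/kg. Fkbp5, which restrains the receptor, rose by 0.58, from −0.39, −0.55 and −0.38 to 0.19, 0.31 and −0.14 at 5 g/kg (n = 3), with the 7 g/kg arrays at 0.15, 0.21 and 0.13. Sult1e1, oestrogen sulphotransferase, rose by 0.92, and Tat, tyrosine aminotransferase, by 0.65 with 1 within-slide difference of 0.02. Other targets did not follow: Per1 was at −0.03, Klf9 at 0.03 and Tsc22d3 at 0.02 and −0.39, and none was called.

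**Figure D4:**
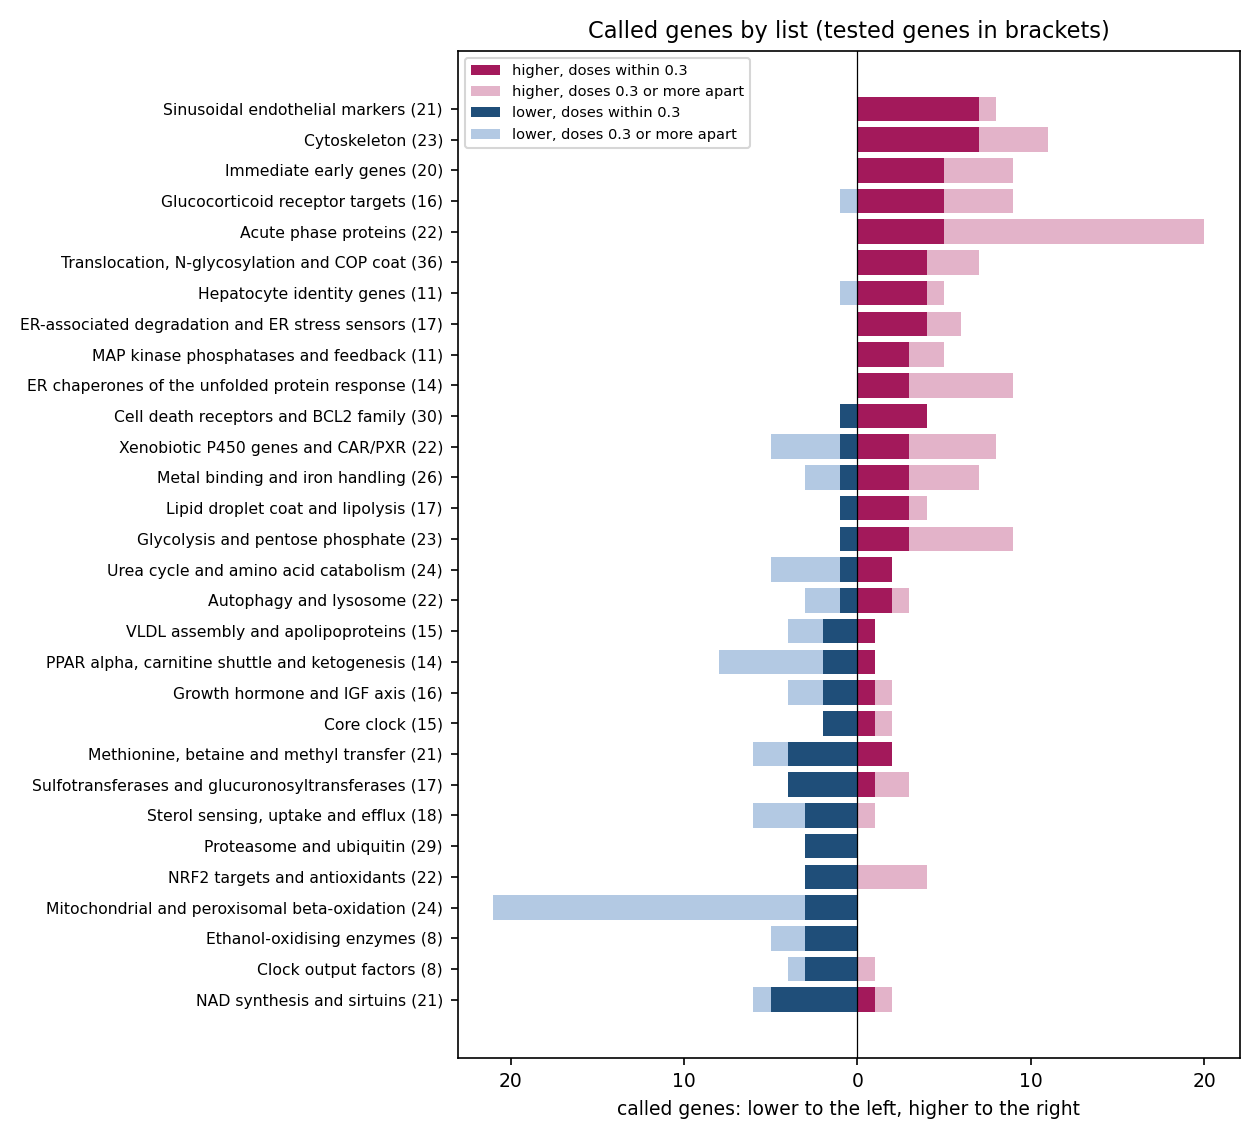
Number of called genes of each list that has at least 3 called members, higher to the right and lower to the left, with the tested genes in brackets. Dark bars are genes whose doses differed by under 0.3 log2 and pale bars the others: the cytoskeletal and endothelial lists are mostly dark, the acute phase and beta-oxidation lists mostly pale.

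Many of the tested cytoskeletal genes rose. Of 23 tested 11 rose and 0 fell (median 0.30, within slides 0.26 to 0.47), and 7 were members. Tpm4, a tropomyosin gene, rose 2.06-fold (log2 1.04, SE 0.12, limma adjusted p = 8.58e-05), from −0.97, −0.88 and −1.2 to 0.06, −0.09, 0.22 and −0.18 at 5 g/kg, with the 7 g/kg arrays at −0.13, 0.27 and 0.02. Actb, beta-actin, rose 1.69-fold, from −0.47, −0.53 and −0.76 to −0.10 to 0.32 at 5 g/kg and 0.13 to 0.26 at 7 g/kg. Myh9, a nonmuscle myosin gene, rose 1.58-fold, and its 3 controls (−0.49, −0.48 and −0.62) and 7 ethanol arrays (−0.07 to 0.29) were each close together. Tubb6 (0.60), S100a10 (0.56), Krt8 (0.42, with overlap) and Tpm1 (0.41) completed the members. Actb, a common reference gene, was called under each of the 26 settings tried. Gapdh, another, was at 0.39 and called in 13 of 26, not with slide as a block (adjusted p = 0.0685) nor without maltose replicate 2 or 3.

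Among markers of other liver cells, part of the endothelial list rose. Of 21 tested endothelial markers 8 rose and 0 fell, and 7 were members: Cdh5 (0.63), Pecam1 (0.51), Flt1 (0.51), Egfl7 (0.50), Tie1 (0.48), Ramp2 (0.44) and Esam (0.36). With slide as a block Pecam1, Ramp2 and Esam were not called (adjusted p = 0.1, 0.064 and 0.0922). Flt1, a receptor for vascular growth factor, had controls at −0.50, −0.12 and −0.59, 5 g/kg arrays at 0.25, 0.09, 0.24 and 0.03, and 7 g/kg arrays at 0.07, 0.13 and 0.00. The mean of the whole list lay at −0.07 to 0.09 in controls, 0.20 to 0.35 at 5 g/kg and 0.21 to 0.30 at 7 g/kg, around the control mean, and its median change was 0.24 with 0.08 to 0.33 within slides. The markers that set sinusoidal cells apart did not follow, with Stab2 at 0.02, Clec4g (also in the Kupffer cell list) at 0.02, Oit3 at −0.16 and Dnase1l3 at −0.18, none called, while Lyve1 rose by 1.29 and 1.72. The count of 8 fell to 1 without maltose replicate 1, to 4 without maltose replicate 2, to 1 without maltose replicate 3 and to 5 without 5 g/kg replicate 2. In whole liver RNA, more cells of a type and more RNA per cell cannot be told apart.

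The other marker lists held fewer called members than the endothelial list, though not all of them moved less. None of 18 Kupffer cell and macrophage markers was called by limma, all 18 were members, 2 had an unadjusted p under 0.05, and the list mean lay at −0.06 to 0.06 in controls, −0.08 to 0.06 at 5 g/kg and −0.14 to 0.18 at 7 g/kg. Of 17 stellate cell and fibroblast markers 3 rose, with Hgf (0.66), a growth factor for hepatocytes, as the only member, and list means of 0.14 to 0.25 after ethanol against −0.12 to 0.08. Of 13 neutrophil markers 4 rose (2 without maltose replicate 1 or 3), with Il1r2 (0.61) as the member and list means of −0.08 to 0.06 in controls, 0.10 to 0.53 at 5 g/kg and 0.45 to 0.51 at 7 g/kg, while Elane (0.01), Mpo (0.04) and Ngp (0.08) were not called. Another Il1r2 probe gave −0.08 (adjusted p = 0.728), and Il1r2 was not called with the mean of its probes (0.26) or without maltose replicate 1 or 3. Hba-a1, an alpha-globin gene with a near-identical copy, rose by 1.24 with overlap, from −0.76, −1.39 and −0.95 to values that ran from −1.01 to 1.33 at 7 g/kg (adjusted p = 0.0959 with slide as a block), and the erythroid factor gene Klf1 fell by 0.70. All 11 tested hepatocyte identity genes were well above background on every array, and of these 5 rose and 1 fell, the members being Ahsg (1.16), Tat, Ttr (0.59) and Trf (0.54), while Alb was at 0.14. Ttr was called in 8 of 26 settings, and the slide block gave it an adjusted p of 0.156. Trf was called in 18 of 24 settings, not with the scanner's processed signals, median centring or Cy5 alone, and its lowest change was 0.07. The risen count was 3 without maltose replicate 1 or with median centring and 2 without maltose replicate 3. The part of cell composition in the rises above was not tested.

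**Figure D5:**
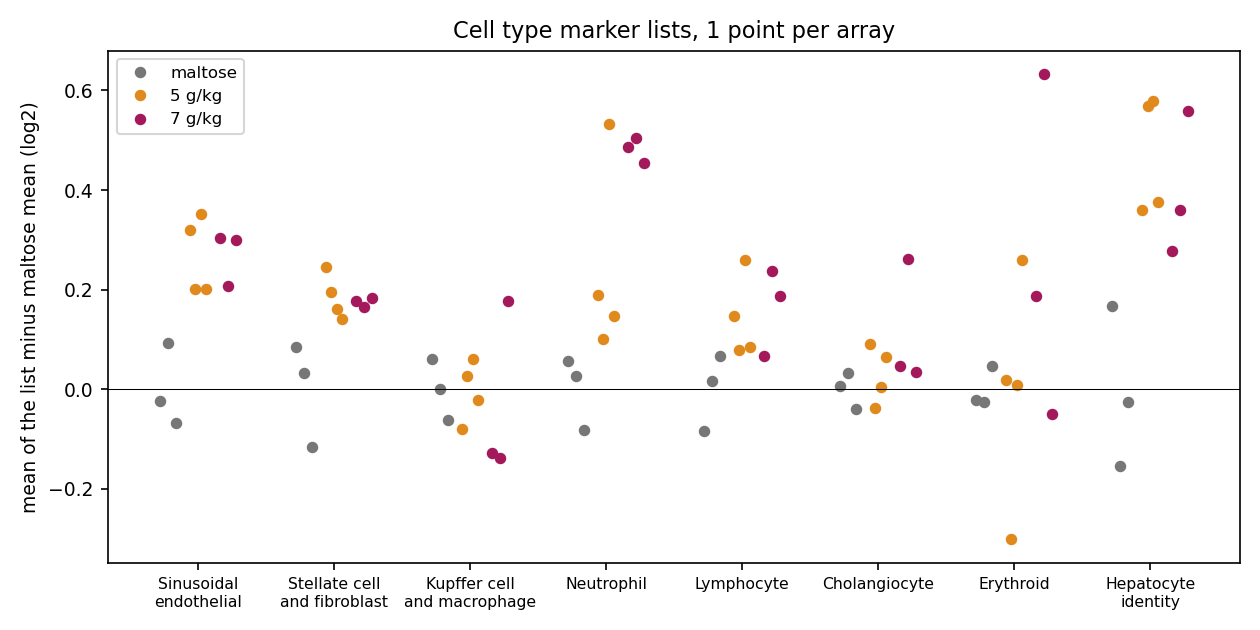
Mean log2 value of each marker list on each array, relative to the mean of the maltose arrays (1 point per array). The endothelial list lies at 0.20 to 0.35 on the ethanol arrays and −0.07 to 0.09 on the controls, and the Kupffer cell list overlaps between the groups.

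Some genes that make or use NAD fell and others rose. Of 21 tested genes of NAD synthesis and the sirtuins 6 fell and 2 rose (median −0.20, within slides −0.18 to −0.11). Sirt3, the mitochondrial deacetylase, fell 1.55-fold (log2 −0.63, SE 0.09, limma adjusted p = 0.000466), from 0.19, 0.28 and 0.30 to −0.32, −0.25, −0.45 and −0.34 at 5 g/kg, with the 7 g/kg arrays at −0.33, −0.56 and −0.36. The arrays of each group were close together and the groups did not overlap. Nmrk1, nicotinamide riboside kinase, fell by 0.60, Sirt7 by 0.49, and Nmnat3 (−0.47) and Qprt (−0.40) fell but were not called with slide as a block (adjusted p = 0.0574 and 0.0728). Cd38, which breaks down NAD, rose 1.75-fold, from −0.81, −0.22 and −0.52 to 0.08 to 0.49 at 5 g/kg and 0.15 to 0.42 at 7 g/kg. The count of 6 was 3 without maltose replicate 1, without maltose replicate 3 or without 7 g/kg replicate 2, and with slide as a block or median centring.

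Of 21 genes of methionine and methyl transfer 2 rose, Nnmt and Mat2a, and both were members. Mat2a, which makes S-adenosylmethionine in growing cells, rose by 0.68, from −0.69, −0.68 and −1.02 to between −0.22 and −0.18 at 5 g/kg, with the 7 g/kg arrays at −0.17, 0.15 and −0.08. Of the 6 that fell 4 were members: Sardh (−0.51), Shmt1 (−0.46), the methionine adenosyltransferase regulator Mat2b (−0.41) and Pemt (−0.37), which makes phosphatidylcholine. With slide as a block Mat2b and Pemt were not called (adjusted p = 0.0515 and 0.0831), while Sardh and Shmt1 were. In that fit 4 of the 21 genes fell, 1 of them with a dose difference under 0.3 log2. The fallen count was 3 without maltose replicate 2 or 3 and with median centring.

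Genes of injury signals and growth changed in small numbers. Of 30 genes of death receptors and the BCL2 family 4 rose and 1, the caspase gene Casp6 (−0.44), fell, all of them members. Tnfrsf12a, the receptor of the cytokine TWEAK, rose by 1.18, from −1.18, −0.89 and −1.49 to −0.39 to −0.02 at 5 g/kg, with the 7 g/kg arrays at 0.16, 0.60 and −0.37, and Tnfrsf1a, a TNF receptor gene, rose by 0.77. Casp6 was not called with slide as a block or without maltose replicate 1 or 3. Bak1 (0.38) and Bax (0.29) rose with adjusted p of 0.0472 and 0.0489 in limma, and neither was called with slide as a block, so that 2 rose. The risen count was also 2 without each single array except 5 g/kg replicate 3 (3) and 7 g/kg replicate 3 (4). Cdkn1a and Bax were the members among 5 genes that rose of 18 targets of p53 (3 without maltose replicate 2 or 3). Igfals, which stabilises circulating IGF1, fell 2.15-fold, from 0.27, 0.43 and 0.34 to −0.97 to −0.41 at 5 g/kg, with the 7 g/kg arrays at −0.91, −0.79 and −0.83, while Igf1 was at −0.13 and not called. Npm1, a nucleolar protein gene, fell 1.64-fold, though another Npm1 probe gave −0.28 and was not called (adjusted p = 0.476). The nucleolar Ncl fell by 0.35 (adjusted p = 0.069 with slide as a block), and none of its 3 other probes was called (−0.28, −0.08 and 0.00). They were the 2 called of 21 ribosome biogenesis genes, of which 1 was called without maltose replicate 1 or 2, and 4 without 7 g/kg replicate 3.

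Other lists gave few members. Of 22 NRF2 targets and antioxidant genes Nqo1 (−0.56), Gpx1 (−0.46) and Keap1 (−0.35) fell, Nqo1 and Keap1 with overlap and neither of them called with slide as a block (adjusted p = 0.0669 and 0.119), while 4 others rose outside the limit, and 0 fell without maltose replicate 1 and 1 without maltose replicate 2 or 3. Of 17 sulphotransferase and glucuronosyltransferase genes, whose families hold close relatives, 4 fell (Sult2a8, Papss2, Sult1b1 and Ugt2a3) and Sult1e1 rose among the members, and 2 fell without maltose replicate 1 or 2 and 1 without maltose replicate 3. Of 29 proteasome and ubiquitin genes Psma7, Psmc6 and Psma5 fell by 0.30 to 0.36, and 0 fell with slide as a block, with median centring or without maltose replicate 1, and 1 without maltose replicate 2 or 3, 5 g/kg replicate 4 or 7 g/kg replicate 1. None of 29 respiratory chain genes was called by limma, with 4 at an unadjusted p under 0.05 and a median of −0.07, and all 29 were members. Of 15 carboxylesterase and lipase genes that can join ethanol to fatty acids 5 were called and 0 were members, with 2 members at an unadjusted p under 0.05.

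The limit of 0.3 log2 passes through a continuous range. Just inside it were Bgn (1.03 at 5 g/kg, 1.33 at 7 g/kg) and Cdpf1 (0.84 and 0.55), and just outside Atp6v1a (0.41 and 0.71) and Oprl1 (−0.17 and −0.47). The 1406 genes included 391 with 487 other probes on the array. Of those probes 448 (92.0%) gave the same direction, 204 were called in it, and 1 was called in the opposite direction. A gene's dose difference was under 0.3 in 431 of them (88.5%). Among genes named above, other probes gave smaller changes for several, such as H3f3b (0.63), Vmp1 (0.84), Shld2 (0.72 and 0.84), Cd38 (0.41), Flt1 (0.31, not called), Edem1 (0.37, and 0.50 not called) and Sult1b1 (−0.18, not called). Smaller and not called were also those of Derl2 (0.40), Aldh4a1 (−0.23), Phgdh (0.26 and 0.20), Mat2b (−0.34) and Ssr1 (0.33). Other probes of Ssr1 (0.55), Shld2 (−0.34) and Sirt7 (−0.31) had a dose difference outside the limit.

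The number of calls depended on the controls. In all, 628 members were called without maltose replicate 1, 922 without maltose replicate 2 and 737 without maltose replicate 3, and with slide as a block 1051 were, 622 higher and 429 lower. Of the 1406 genes, 923 were called in the same direction with slide as a block. The Cy3 reference alone, tested as if it were the sample, gave 0 calls in limma and 194 genes at an unadjusted p under 0.05, and the median size of the change of the 1406 genes in it was 0.057 log2.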

How the data were processed

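The scanner files were written by Feature Extraction 11.5.1.1 (Agilent), per the file headers. They hold, as deposited, each spot's median intensity and local background per channel, not normalized, and the processed intensity and log10 ratio of red over green. The deposited series table holds log2 ratios with no step stated, a scale read from its values. In R 4.3.3 with limma 3.58.1, the median intensities were corrected by normexp (offset 50) and normalized by loess within each array. Control spots and outlier-marked spots were left out, probes of a name were averaged, and probes well above background in the liver channel on fewer than 3 arrays or with under 2 values in a group were dropped (41174 probes, 32618 left). The brightest probe stood for each gene. Symbols came through RefSeq accessions from the GRCm38.p6 annotation, which named 24375 probes (59.2%), and 15111 tested genes. No probe coordinates are given. Of the values 1.43% were missing.

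All 10 arrays entered 1 fit (7 residual and 7.24 prior degrees of freedom), two-sided. The dose difference chose the members and was not tested. Replicate numbers did not pair the arrays by the check of their deviations.

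The members and the 62 lists (1064 tested genes) were chosen with earlier results of these data known. Named genes were the 12 highest and 12 lowest called members with a symbol and groups that do not overlap, up to 3 per list by p, a fixed set, and the 2 on each side of the limit. Other called members of the lists were named after their values were seen, and so were uncalled list genes given for comparison. The steps were tested on simulated data. Alternatives changed the background correction, normalization, channel, source of the values, filters, probe choice, variance model, blocks and limits, and left out each array.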

Additional observations from a re-analysis of the deposited data

Results flagged for a closer look

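Among 160 named genes searched at 5 g/kg, the group of 4 arrays, 7 had 1 array far from the other 3 by Dixon's criterion, which flags about 1 group in 20 by chance. In Adh1 replicate 4 was lowest at −0.39 (next −0.27), in Krt8 replicate 4 at −0.44 (next −0.01), in Npc1 replicate 3 at −0.42 (next −0.08) and in Lipg replicate 3 at −0.53 (next 0.03). In Mcm7 replicate 1 was highest at 0.16 (next −0.26), in Sult1b1 replicate 2 at −0.03 (next −0.28) and in Qprt replicate 2 at −0.16 (next −0.48).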

How the results depend on the processing

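The 2209 calls, 1406 of them members (735 higher, 671 lower), became 866 members with the scanner's processed signals (428 and 438) and 907 with the deposited series table (445 higher). Cy5 alone gave 517 calls and 206 members (107 and 99). Median centring left 332 lower members, and slide as a block 429. At an adjusted p under 0.01 there were 1065 calls and 550 members (300 and 250), and at a change of 1.5-fold or more 925 and 403 (264 and 139). A dose difference under 25% of the change gave 708 members (406 and 302), one under 0.2 gave 1019 and one under 0.5 gave 1833. Leaving out 1 array gave 1144 to 2142 calls and 628 to 1444 members (342 to 835 higher, 286 to 643 lower), with maltose replicate 1 at the low end. With the replicate block there were 2098 calls and 1384 members, and same-numbered arrays did not all deviate together.

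Of 164 named called members 48 were called in the same direction under every alternative, 107 were not called from Cy5 alone and 44 not with slide as a block. The sign turned from Cy5 alone for Apoc3 (−0.025), Serpina1e (−0.241), Ahsg (−0.017), Per2 (−0.186) and Esam (−0.096). It also turned for Per2 with the mean of its probes (−0.048), for Plin2 (−0.159) and Pnpla2 (−0.003) without maltose replicate 3, and for Neu1 without 7 g/kg replicate 1 (−0.338) or replicate 2 (−0.275), where another probe stood for the gene. Over the left-out arrays these genes reached 0.382, 0.352 and 0.772. The cause of the other changes was not tested.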
